A study of Mus musculus with 8 samples.

Results

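The splenic effector Treg (eTreg) comparison is made of the 4 libraries whose labels give spleen as the tissue, out of 8 in the whole series: 2 labelled KO and 2 labelled WT. Both genotypes were C57BL/6 mice that carried the FoxP3YFP-Cre allele, in which the Foxp3 promoter drives a YFP-tagged Cre recombinase. The KO mice were Prdm1fl/flFoxP3YFP-Cre, so that Cre deletes Prdm1, the gene of the transcription factor Blimp1, in Foxp3-expressing cells. The WT mice were FoxP3YFP-Cre without the floxed gene. In both groups B16.OVA melanoma, which expresses ovalbumin, was implanted under the skin on day 0. NP-OVA, ovalbumin with a hapten, was injected into the peritoneum in complete Freund's adjuvant on day 0 and in incomplete adjuvant on day 7. Tumors were at most 1.5 cm3, and cells were sorted from the spleen as CD45+CD44+YFP+CD4+CD3+. The study's methods give 1 age range for all of its mice, from juvenile to young adult. The number of mice behind each library is not given in the sources used here, and nothing says that the replicates came from separate mice, so p-values measure only the spread between these libraries, which may be technical. The question of the comparison was what the loss of Blimp1 changes in eTreg cells away from the tumor.

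Treg cells restrain immune responses through Foxp3, the factor that sets their identity, and through molecules such as CTLA-4 and the cytokine IL-10. Activated Treg cells that have met antigen are called eTreg cells, and Blimp1, a zinc finger repressor best known from plasma cell differentiation, is a marker of many of them and is known to promote IL-10. Type 17 genes, among them Il23r and Ccr6, belong to a program of T cells in the gut and other barrier tissues, which Treg cells can share. Blimp1 is known to bind DNA at sites built around the letters GAAAG.

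The libraries held between 28269666 and 43903859 raw counts on genes. Levels are given as CPM, counts scaled to a common library total over tested genes by edgeR's TMM method, and the floor of 3 counts corresponded to between 0.0682 and 0.115 CPM, which covers counting error only. Fold changes are KO over WT on the log2 scale, from edgeR's quasi-likelihood test. The standard error (SE) was derived as the absolute log2 fold change divided by the square root of that test's F statistic. Adjusted p-values are the test's Benjamini-Hochberg values over 16583 genes tested. Passing means an adjusted p under 0.05 and more than 1 in log2 fold change, in either direction. A gene was called separated when both KO libraries lay above, or both below, both WT libraries.

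Prdm1 lies on chromosome 10 of GRCm38 (44437177 to 44528501, minus strand). It was at 43.0 and 57.3 CPM in the libraries labelled KO and at 57.5 and 22.6 CPM in those labelled WT, so the groups overlapped (log2 fold change 0.32, SE 0.49, adjusted p = 0.894 in edgeR's test). Counts for a gene cover its whole set of exons, and which exons the floxed allele loses is not given in the sources used here. The level of Prdm1 therefore does not check the labels, and KO and WT below mean the libraries so labelled. The sorted cells held the markers of CD4 Treg cells in every library. Foxp3 was between 45.6 and 74.1 CPM, Cd3e between 1343 and 1536 CPM, and Cd4 between 413 and 1068 CPM, with WT replicate 2 lowest.

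Across all genes, 0 of 16583 passed in edgeR's quasi-likelihood test (0%), and the smallest adjusted p was 0.106. Unadjusted p-values fell under 0.05 for 253 genes higher in KO (1.53%) and 236 lower (1.42%). In DESeq2's Wald test 75 genes passed (0.441% of the 17020 with an adjusted p), of which 67 were higher and 8 lower. There were 2735 genes separated and higher in KO (16.5%) and 2639 separated and lower (15.9%), and with an absolute log2 fold change over 1 there were 525 (3.17%) and 859 (5.18%). Leaving out single libraries moved the number that passed in edgeR's test most for the WT pair. Without WT replicate 1 it was 3972 of 18008 genes (22.1%), and without WT replicate 2 it was 47 of 17601 (0.267%). It was 32 without KO replicate 1 and 21 without KO replicate 2. In each of these fits the library left alone is assumed to vary like the pair.

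The genes with the smallest p were receptors of type 17 cytokines on the higher side, and IL-10 and granzyme B on the lower side. The promoters of Il23r, Il17re and Gzmb are shown because Il23r and Il17re had the smallest p on the higher side and Gzmb the smallest on the lower side after Il10, which is named only. Each runs 5′ to 3′ on the gene's own strand from 250 bases before to 50 bases after the start, from RefSeq on GRCm38.p6, and capitals mark GAAAG or its reverse complement CTTTC. They lie at chr6:67491806-67492105 (minus strand), chr6:113458521-113458820 (plus strand) and chr14:56262285-56262584 (minus strand).
Il23r promoter: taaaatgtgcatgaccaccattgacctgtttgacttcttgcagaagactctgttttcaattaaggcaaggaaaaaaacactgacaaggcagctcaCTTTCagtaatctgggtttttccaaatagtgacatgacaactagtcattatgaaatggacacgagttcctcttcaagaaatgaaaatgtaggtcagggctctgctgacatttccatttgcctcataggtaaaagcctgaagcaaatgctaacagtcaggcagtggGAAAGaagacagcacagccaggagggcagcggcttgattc
Il17re promoter: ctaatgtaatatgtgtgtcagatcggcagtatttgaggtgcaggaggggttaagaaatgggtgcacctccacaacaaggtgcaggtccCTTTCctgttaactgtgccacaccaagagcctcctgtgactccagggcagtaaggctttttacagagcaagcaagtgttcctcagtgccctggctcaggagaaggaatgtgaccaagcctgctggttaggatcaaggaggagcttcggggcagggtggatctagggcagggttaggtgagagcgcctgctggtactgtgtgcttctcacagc
Gzmb promoter: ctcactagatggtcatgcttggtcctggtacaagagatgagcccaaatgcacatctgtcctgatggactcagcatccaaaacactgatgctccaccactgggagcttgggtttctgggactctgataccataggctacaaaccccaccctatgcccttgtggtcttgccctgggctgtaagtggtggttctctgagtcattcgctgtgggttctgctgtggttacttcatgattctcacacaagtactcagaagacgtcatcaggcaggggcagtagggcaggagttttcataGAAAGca

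GAAAG was read on both strands, as was the longer form GNGAAAG, which contains GAAAG. Among 32851 promoters of the same length, 57.3% held GAAAG and 22.6% held GNGAAAG. Of the 12 genes named on the higher side, 10 matched the table with 11 promoters, of which 8 held GAAAG and 2 held GNGAAAG. Of the 12 on the lower side, 7 matched with 9 promoters, of which 8 held GAAAG and 2 held GNGAAAG. The promoters of Klrb1b overlap each other, as do those of Ly6c1. By gene, GAAAG was held by 7 of 10 on the higher side and 7 of 7 on the lower, against 16384 of 27025. GNGAAAG was held by 2 of 10 and 2 of 7 genes, against 6836 of 27025. These are letters in a window, not measured binding.

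Il23r, which encodes the receptor subunit for interleukin 23, was at 60.9 and 36.8 CPM in KO and at 0.892 and 0.844 CPM in WT. The genotypes were far apart and the WT libraries nearly equal. The log2 fold change was 5.81 (SE 0.48, adjusted p = 0.106 in edgeR's test), and Il23r passed in 9 of 15 alternatives to this fit, with adjusted p-values from 4.78e-40 to 0.256. Il17re, a receptor chain for interleukin 17C, was at 29.2 and 21.3 CPM in KO and at 1.21 and 1.19 CPM in WT, again without overlap and with WT libraries that nearly matched. Its log2 fold change was 4.39 (SE 0.43, adjusted p = 0.140 in edgeR's test), and it also passed in 9 of 15 alternatives.

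Stom, which encodes the membrane protein stomatin, was at 172 and 146 CPM in KO and at 16.7 and 16.9 CPM in WT (log2 fold change 3.24, SE 0.35, adjusted p = 0.140 in edgeR's test). Among the 12 genes with the smallest p on this side it stood out by the close match of its WT libraries at a high level. Mmp25, a membrane-bound matrix metalloproteinase, was at 99.9 and 76.9 CPM against 11.3 and 6.56 CPM. Ltb4r1, the receptor for the lipid attractant leukotriene B4, was at 91.2 and 116 CPM against 18.2 and 20.3 CPM. Pcsk1, a convertase that cleaves prohormones, showed a spread within WT: it was at 128 and 76.7 CPM in KO, at 2.17 CPM in WT replicate 1 and at 0.192 CPM in WT replicate 2. The fitted log2 fold change of Pcsk1 was 6.41 (SE 1.0), and it lay between 5.56 and 9.11 over the alternatives.

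The other genes on this side had lower levels. Ermn, a cytoskeletal protein gene, was at 18.9 and 15.6 CPM in KO and at 0.318 and 0.575 CPM in WT. Msc, a basic helix-loop-helix repressor gene, was at 11.9 and 14.6 CPM against 0.159 and 0.575 CPM. Ptprf, a receptor-type tyrosine phosphatase gene, was at 25.5 and 18 CPM against 2.67 and 2.49 CPM. These 3 were each separated by more than the spread within either pair of libraries. Plekhf1 was at 30.3 and 26.1 CPM against 4.81 and 3.11 CPM. St6galnac1, a sialyltransferase gene, had 373 and 196 counts in KO and 3 and 2 counts in WT, a ratio of 81.0 (exact 95% interval 34.5 to 250.3 from the summed counts, covering counting error only and not the spread between libraries). Klrb1b, a lectin-like receptor gene, had 173 and 305 counts in KO, 1 in WT replicate 1 and 0 in WT replicate 2. That is a ratio of 340.04, with an exact 95% interval from 60.7 to 13459 that again covers counting error only. Reads of near-identical Klrb1 family members could have been split in counting. All 12 were separated by the rule that named them, none passed on 4 libraries (adjusted p from 0.106 to 0.392 in edgeR's test), and all 12 passed when WT replicate 2 was left out.

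On the lower side, Il10, which encodes the suppressive cytokine interleukin 10, was at 0.818 and 1.01 CPM in KO and at 15.2 and 15.1 CPM in WT. Replicates matched closely in both genotypes. The log2 fold change was -4.05 (SE 0.46, adjusted p = 0.140 in edgeR's test), and Il10 passed in 7 of 15 alternatives, with adjusted p-values from 2.45e-12 to 0.679. Gzmb, the serine protease granzyme B, was at 1.27 and 3.45 CPM in KO against 71.9 and 56.9 CPM in WT. The 2 genotypes did not overlap, and the KO pair differed more in proportion than the WT pair. The log2 fold change of Gzmb was -4.77 (SE 0.58, adjusted p = 0.190 in edgeR's test), and it passed in 9 of 15 alternatives. Klrg1, an inhibitory lectin-like receptor of effector lymphocytes, was at 85.4 and 86.2 CPM in KO against 258 and 284 CPM in WT (log2 fold change -1.66, SE 0.33, adjusted p = 0.781 in edgeR's test).

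Ccl4, a chemokine gene, was at 0.818 and 0.543 CPM in KO against 4.43 and 6.6 CPM in WT. Ly6c1, a surface protein gene, was at 7.80 and 6.68 CPM against 19.6 CPM in WT replicate 1 and 63.5 CPM in WT replicate 2. Mmp9, which encodes gelatinase B, was at 6.09 and 5.33 CPM against 22.2 and 12.5 CPM. For Ly6c1 the size of the difference depended on the WT library, and its log2 fold change moved between -3.06 and -1.44 over the alternatives. Igsf23, Marco, Isg15, Chil5, Ccr2 and Ccl5 completed the 12 genes, with log2 fold changes between -2.19 and -1.16. Marco, a scavenger receptor gene of macrophages, was at 0.955 and 1.41 CPM in KO against 3.03 and 7.79 CPM in WT. Summed macrophage markers were at 404 and 1150 CPM in KO and at 590.3 and 1870 CPM in WT, and their part in the difference of Marco was not tested. Of the 12, Il10, Gzmb, Klrg1 and Mmp9 passed without WT replicate 2, and adjusted p-values of all 12 on 4 libraries were from 0.140 to 0.878 in edgeR's test.

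**Figure D1:**
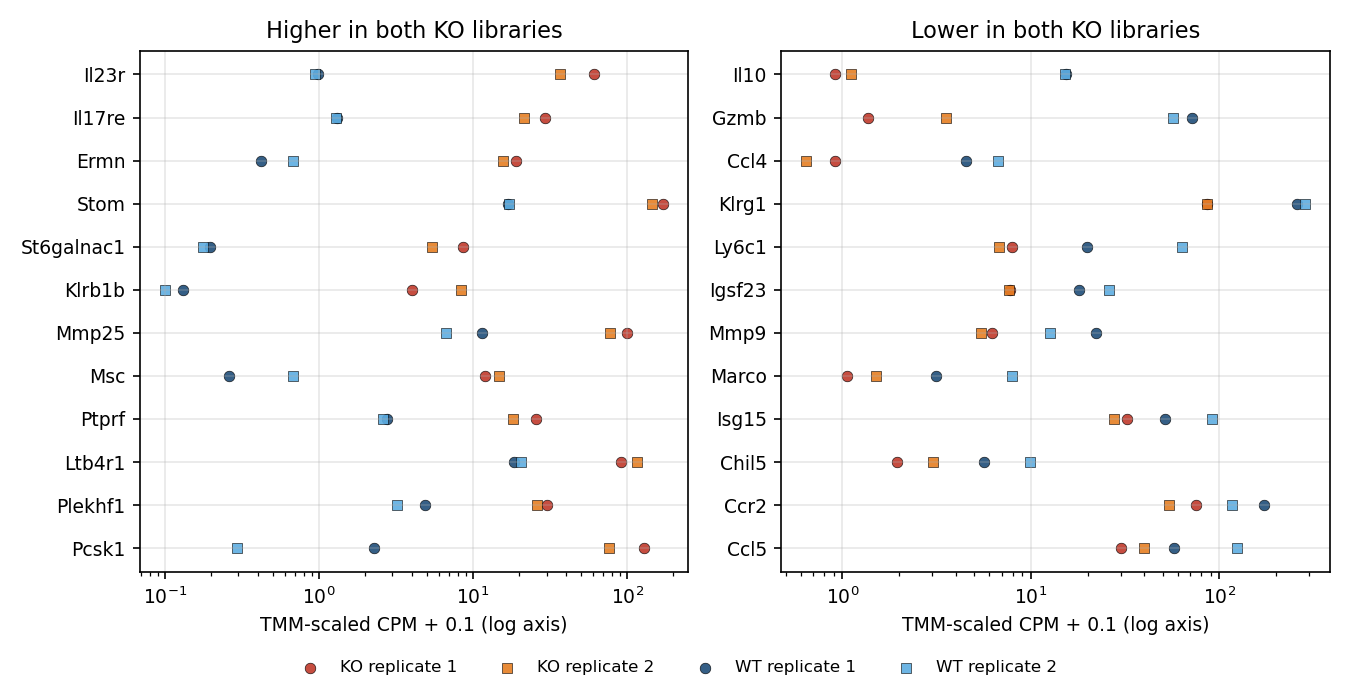
Levels of the 12 genes with the smallest p in each direction, as TMM-scaled CPM plus 0.1 on a log axis, with 1 point for each splenic library. Il23r, Il17re, Stom and Il10 had WT libraries that nearly coincided, while the WT libraries lay apart for Pcsk1 and Ly6c1.

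Of the lists of T cell programs, the type 17 genes had the highest median. Of 20 members 18 were tested, 10 were separated and higher in KO and 1 was separated and lower, against 16.5% and 15.9% of all genes. Their median log2 fold change was 1.19, against -0.02 for all genes, and no member passed. The list was chosen with earlier results of these data known, so its direction is not independent evidence. At an unadjusted p under 0.05 there were 8 members higher and 0 lower.

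Ccr6, the chemokine receptor of type 17 cells, was at 375 and 299 CPM in KO and at 100 and 88.5 CPM in WT (log2 fold change 1.84, SE 0.35, adjusted p = 0.634 in edgeR's test). Il1r1, the signaling receptor for interleukin 1, was at 16.4 and 10.1 CPM against 2.04 and 0.192 CPM. In both genes the genotypes were apart, with WT replicate 2 the lowest library each time. Tmem176a and Tmem176b, neighboring genes of ion channel proteins, were at 166 and 182 CPM and at 224 and 311 CPM in KO. In WT they were at 17.5 and 36.7 CPM and at 29.6 and 51.0 CPM. Their log2 fold changes were 2.68 (SE 0.45) and 2.73 (SE 0.43), and whether counting used strand is not given in the sources used here, so reads of overlapping neighbors cannot be told apart.

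The cytokines and upstream factors of the program were mixed. Il17a and Il22 were not tested, with at most 0.250 CPM in any library, and Il17f was between 0.0384 and 0.350 CPM. These levels are near the floor, so a difference was not detectable at this depth. Stat3, the factor downstream of interleukins 6 and 23, was at 364 and 322 CPM in KO and at 340 and 162 CPM in WT, which overlapped. Ahr, Maf and Batf overlapped as well, with log2 fold changes of 0.36, -0.14 and -0.24. Rora was separated and higher, at 203 and 208 CPM against 142 and 116 CPM, and Il6ra was separated and lower, at 39.6 and 42.3 CPM against 45.3 and 59.6 CPM.

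**Figure D2:**
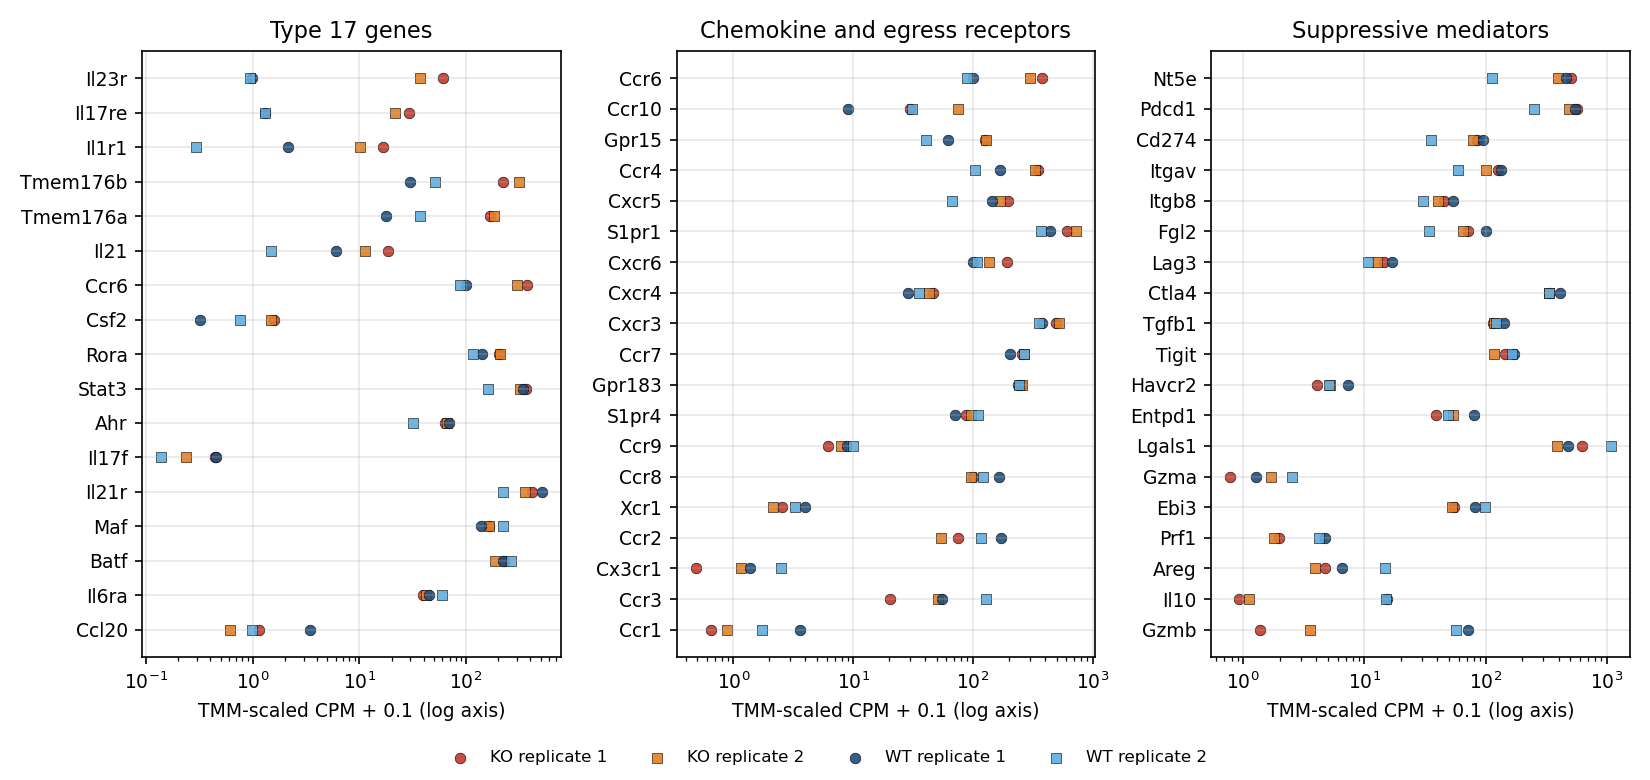
Levels of tested type 17 genes, chemokine and egress receptors, and suppressive mediators that are reported here, as TMM-scaled CPM plus 0.1 on a log axis, with 1 point for each splenic library and genes ordered by log2 fold change. Il23r, Il17re and Ccr6 lie to the right in both KO libraries, and Il10 and Gzmb to the left.

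Receptors for other cytokines were mixed. Il18r1, the receptor chain for interleukin 18, was at 78.7 and 107 CPM in KO and at 37.7 and 30.0 CPM in WT (log2 fold change 1.46, SE 0.35, adjusted p = 0.878 in edgeR's test). Il7r, the receptor chain for the survival cytokine interleukin 7, was at 542 and 904 CPM against 239 and 363 CPM. Il12rb2 was at 8.73 and 2.91 CPM against 1.85 and 0.882 CPM. Each was higher in both KO libraries, and the KO replicates of Il7r and Il12rb2 differed from each other in opposite order. Of 35 cytokine receptor and STAT genes tested, 7 were separated and higher, 5 separated and lower, and 0 passed, shares near the 16.5% and 15.9% of all genes. For these receptors the median log2 fold change of 0.16 was 0.86 without WT replicate 1 and -0.12 without WT replicate 2. The genes of the interleukin 2 receptor overlapped between genotypes: Il2ra was at 277 and 262 CPM in KO and at 408 and 212 CPM in WT.

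Chemokine and egress receptors were separated in both directions, 9 higher and 8 lower of 20 tested, against 16.5% and 15.9% of all genes, with none passing. Besides Ccr6, the higher ones included Ccr4, a receptor for homing to skin, at 346 and 331 CPM in KO against 169 and 103 CPM in WT (log2 fold change 1.32, SE 0.38). Gpr15, a receptor for homing to the large intestine, was at 125 and 129 CPM against 61.3 and 40.4 CPM (log2 fold change 1.32, SE 0.36). For both receptors the KO libraries matched closely and WT replicate 2 was lowest. Among the lower ones, Ccr2, the receptor for CCL2, was at 74.7 and 53.6 CPM against 171 and 116 CPM (log2 fold change -1.16, SE 0.38). Ccr1 was at 0.546 and 0.788 CPM against 3.50 and 1.65 CPM. Ccr2 and Ccr1, receptors for inflammatory chemokines, both had WT replicate 1 as the highest library.

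Treg identity genes included 20 tested members, of which 2 were separated and higher and 6 separated and lower, against 16.5% and 15.9% of all genes. Their median log2 fold change was -0.20, but it was 0.13 without WT replicate 1 and -0.42 without WT replicate 2, so its direction depended on the WT library. Foxp3 itself was at 45.6 and 60.5 CPM in KO and at 74.1 and 62.5 CPM in WT (log2 fold change -0.37, SE 0.34, adjusted p = 0.878 in edgeR's test). KO replicate 2 and WT replicate 2 lay close together, and the log2 fold change of Foxp3 was -0.16 without KO replicate 1 and -0.17 without WT replicate 1. Ikzf2, which encodes Helios, was at 295 and 358 CPM against 498 and 735 CPM (log2 fold change -0.92, SE 0.37, adjusted p = 0.878 in edgeR's test). Izumo1r, which encodes folate receptor 4, was at 624 and 551 CPM against 968 and 1458 CPM. Ctla4 was at 330 and 334 CPM in KO and at 414 and 334 CPM in WT, and the libraries overlapped. Itgae, the integrin chain CD103 that holds cells in epithelia, went the other way, at 331 and 367 CPM in KO against 228 and 117 CPM in WT (log2 fold change 1.02, SE 0.42), with 0.61 without WT replicate 2 and 1.65 without WT replicate 1. The log2 fold change of Ikzf2 was -0.61 without WT replicate 2.

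Suppressive mediators had 0 of 19 tested members separated and higher, and 7 separated and lower, against 16.5% and 15.9% of all genes. Their median log2 fold change was -0.35, and it was -0.15 without KO replicate 1, -0.19 without KO replicate 2, 0.015 without WT replicate 1 and -0.32 without WT replicate 2. Besides Il10 and Gzmb these were Ebi3, Tgfb1, Prf1, Areg and Tigit. Ebi3, a subunit of interleukin 35, was at 54.4 and 52.4 CPM in KO and at 82.3 and 97.8 CPM in WT. Areg, the tissue repair factor amphiregulin, was at 4.61 and 3.83 CPM against 6.46 and 14.8 CPM. Prf1, the pore former perforin, was at 1.86 and 1.68 CPM against 4.62 and 4.14 CPM. For Ebi3 and Prf1 both pairs were close, whereas the WT libraries of Areg lay far apart. Tgfb1 differed little, at 115 and 117 CPM against 142 and 121 CPM. Gzmc, from the list of cytotoxic genes, was at 0.296 and 0.924 CPM against 2.48 and 4.83 CPM, and reads of the similar granzyme genes may have been split in counting. Of 18 tested members of that list, 4 were separated and higher and 6 separated and lower, against 16.5% and 15.9% of all genes. The median log2 fold change of the cytotoxic list was -0.019. Klrc1, one of its separated and higher members, was at 9.52 and 14.3 CPM in KO against 0.764 and 3.34 CPM in WT.

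Follicular genes, which mark Treg and helper T cells that enter B cell follicles, had 10 of 21 tested members separated and higher and 0 separated and lower, against 16.5% and 15.9% of all genes, with a median log2 fold change of 0.41. Bcl6, the master regulator of this state and a gene that Blimp1 is known to repress, was at 56.9 and 53.7 CPM in KO, at 41.2 CPM in WT replicate 1 and at 12.2 CPM in WT replicate 2. Cxcr5, the follicle-homing receptor, was at 196 and 167 CPM against 143 and 66.7 CPM. Both had the larger gap to WT replicate 2, and their log2 fold changes without that library were 0.42 and 0.35, against 1.05 and 0.79 with it. Il21, the cytokine of follicular helper cells, was at 18.6 and 11.2 CPM against 5.89 and 1.38 CPM. Ascl2 was at 5.77 and 5.22 CPM against 2.04 and 2.49 CPM, with a log2 fold change of 1.28 (SE 0.47). Pdcd1, which encodes PD-1, overlapped, at 567 and 489 CPM in KO and at 544 and 253 CPM in WT. The median of the list was 0.30 without WT replicate 2 and 1.21 without WT replicate 1.

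Genes of quiescent and central cells had 6 of 20 members separated and higher, among them Tcf7 and Il7r, and 5 separated and lower, against 16.5% and 15.9% of all genes. The median of this list, -0.11, was 0.077 without WT replicate 2 and 0.038 without KO replicate 1. Tcf7, the gene of TCF-1, was at 393 and 329 CPM in KO and at 283 and 239 CPM in WT (log2 fold change 0.47, SE 0.34). The gap between the genotypes was smaller than the spread of Tcf7 within KO, and it did not pass. Eomes, a regulator of cytotoxic lymphocytes, was low in all 4 libraries, between 0.353 and 1.46 CPM, with no order between genotypes. Of 20 genes that textbooks list as repressed by Blimp1, 5 were separated and higher and 5 separated and lower, against the same shares of all genes. The median of these was -0.02, between -0.25 without WT replicate 1 and 0.35 without WT replicate 2.

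Interferon-stimulated genes had 0 of 27 members separated and higher and 11 separated and lower, against 16.5% and 15.9% of all genes. Their median log2 fold change was -0.24, with a median of -0.49 without WT replicate 2 and of 0.31 without WT replicate 1. Isg15 was at 32.1 and 27.5 CPM in KO against 51.1 and 91.2 CPM in WT, and Rsad2 at 11.9 and 13.2 CPM against 24 and 25.0 CPM. Oas2 was at 0.205 and 0.272 CPM against 1.94 and 1.61 CPM (log2 fold change -2.89, SE 0.68, adjusted p = 0.878 in edgeR's test). The AP-1 and Egr list of immediate early genes also held genes of neither family, such as Ier2, Zfp36, Klf6 and Myc. Of its 16 tested members, 0 were separated and higher and 8 separated and lower, against 16.5% and 15.9% of all genes. Ier2 and Zfp36 were among the lower ones, and Egr1, Egr2 and Egr3 overlapped. The median of this list was -0.22, and it was -0.46 without KO replicate 1 and -0.055 without KO replicate 2. Fos was at 287 CPM in KO replicate 1 and at 56.9 CPM in KO replicate 2, against 297 and 298 CPM in WT, so KO replicate 1 lay close to the WT libraries. Dusp2 and Dusp5, phosphatases that restrain MAP kinases, were lower in both KO libraries, with Dusp5 at 38.8 and 31.8 CPM against 65.4 and 67.7 CPM. Dusp2 was at 50.8 and 39.0 CPM in KO against 63.6 and 139 CPM in WT. Dusp4, Dusp6, Dusp10 and Dusp16 overlapped. The list of Nr4a and Dusp genes also held the phosphodiesterase genes Pde3b and Pde4b. Of its 12 tested members, 0 were separated and higher and 6 separated and lower, against 16.5% and 15.9% of all genes. Pde3b was among the lower ones. Cell cycle genes had 0 of 34 separated and higher and 1 separated and lower, against 16.5% and 15.9% of all genes. Their median log2 ratio of KO replicate 1 over KO replicate 2 was 0.59. The median log2 fold change of the cell cycle genes, 0.22, was -0.17 without KO replicate 1 and 0.64 without WT replicate 1.

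**Figure D3:**
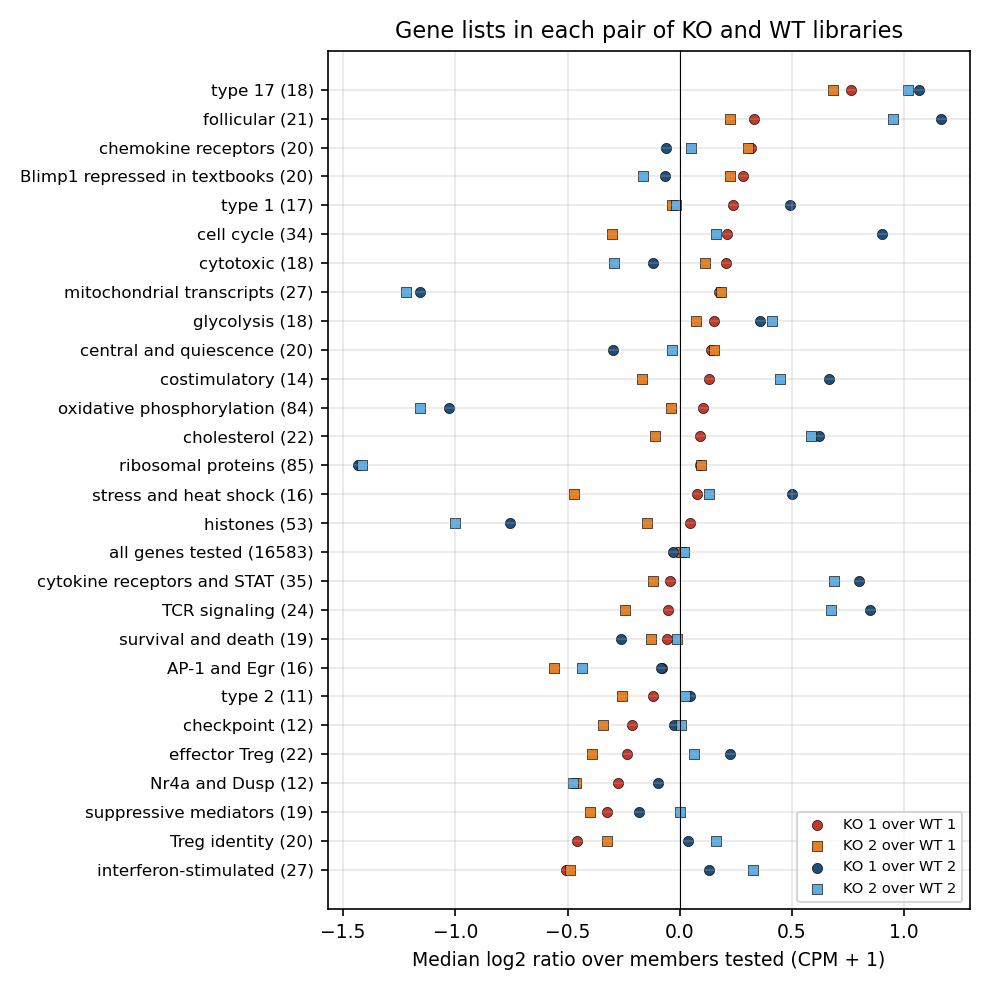
Median log2 ratio of CPM plus 1 over the tested members of each list, with the number tested in brackets, for each KO library over each WT library. Ribosomal protein genes lie near 0 against WT replicate 1 and at -1.44 and -1.42 against WT replicate 2, while type 17 genes lie to the right of 0 in all 4 pairs.

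WT replicate 2 stood apart from the other 3 libraries. The robust SD of the log2 ratio of CPM plus 1 was 0.816 over all genes between the WT replicates, and between 0.251 and 0.272 for the pairs among the KO libraries and WT replicate 1. Genes more than 2-fold apart were 22.8% of the total in the WT pair, against 1.99% in the KO pair and 1.88% and 2.30% between WT replicate 1 and each KO library. The 100 most abundant genes took 30.0% of the counts of WT replicate 2, against 20.3% to 20.9% in the others. Its most abundant gene was Lars2, the mitochondrial leucyl-tRNA synthetase, at 22599 CPM, against 3709 to 4127 CPM in the other libraries.

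The difference followed exon length, the number of bases in the union of a gene's exons, with genes split by length into 5 bins of equal size. In the shortest bin (11 to 1345 bases) the median log2 ratio of WT replicate 2 over WT replicate 1 was 0.53, and from the shortest to the longest bin the medians were 0.53, 0.24, -0.11, -0.34 and -0.46. The shortest minus the longest bin came to 0.99, against -0.0093 in the KO pair and 0.029 and 0.037 between the KO libraries and WT replicate 1. Across genes, Spearman's rho with length was -0.45 in the WT pair and between -0.029 and 0.015 in those other 3 pairs. It is a description over 16583 genes that share 2 libraries. The relation with GC content was weaker, with a rho of 0.10 in the WT pair, and medians fell from the shortest to the longest bin within each of 5 bins by GC content, except between the longest pair of bins at the highest GC (-0.40 and -0.39). The shortest bin held 17.5% of the counts of WT replicate 2 and 8.89% to 9.25% of those of the other libraries.

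**Figure D4:**
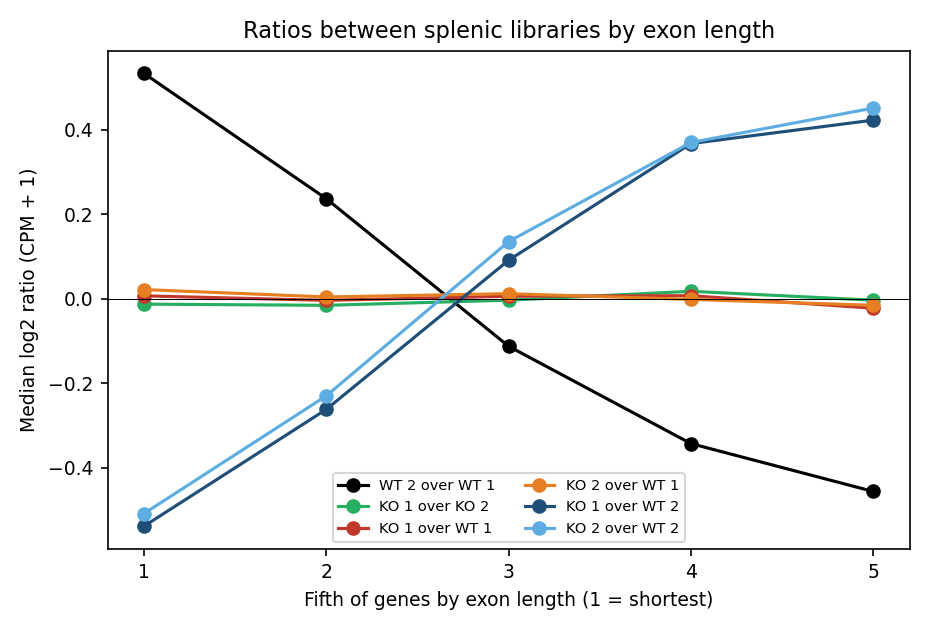
Median log2 ratio of CPM plus 1 in 5 equal bins of genes ordered by exon length, for the 6 pairs of splenic libraries. WT replicate 2 over WT replicate 1 runs from 0.53 to -0.46, both KO libraries over WT replicate 2 run the opposite way, and the other 3 pairs stay near 0.

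Gene classes with short transcripts moved with that library. Cytosolic ribosomal protein genes took 9.58% of counts in WT replicate 2 and 3.90% to 4.30% in the others, and their median log2 ratio of WT replicate 2 over WT replicate 1 was 1.52 for 85 genes. Mitochondrial transcripts had a median of 1.33, nuclear genes of oxidative phosphorylation 1.12 and histone genes 0.85. Lists with longer transcripts lay on the other side, with -0.91 for T cell receptor signaling genes and -0.83 for cytokine receptors and STAT genes. The KO over WT medians of the short classes, -0.87 for ribosomal protein genes and -0.81 for histones, were 0.10 and -0.09 without WT replicate 2. Among genes with a mean of at least 20 CPM and a log2 ratio between the KO libraries within 0.5, Lars2, Hnrnpa0, Cela1, Mbd2 and Gngt2 were highest in WT replicate 2 over WT replicate 1, and Mfsd4a, Sacm1l, Usp33, Zfp869 and Rfwd3 were lowest. Sacm1l, a lipid phosphatase gene, was at 97.8, 78.1 and 91.0 CPM in the KO libraries and WT replicate 1 and at 12.4 CPM in WT replicate 2. Lars2 was high in WT replicate 2 although its exons span 11089 bases. Of genes with at least 5 CPM in the other 3 libraries, 62 in WT replicate 2 lay more than 4 times below each other library and 82 lay over 4 times each other library, against at most 5 and 7 in any of the others.

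The share of genes separated between genotypes also differed by length. In the shortest bin, 6.15% of genes were separated and higher in KO and 23.5% separated and lower, and in the longest bin 21.4% and 9.53%. The part of length in the counts of separated members of each list was not tested. An offset fitted to length in each library left 0 genes passing in edgeR's test, with 606 at an unadjusted p under 0.05 and a smallest adjusted p of 0.0652.

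Of the 47 genes that passed without WT replicate 2, 43 were higher and 4 lower in KO, with adjusted p-values from 0.00500 to 0.0495 in edgeR's test. WT replicate 2 was not part of that fit. Of all genes tested, 43.7% had both KO libraries above WT replicate 2 and 44.3% had both below it. Both KO libraries also lay above it in 38 of the 43 and below it in 4 of the 4 lower genes, a description, since the same KO libraries chose these genes. DESeq2's test on 4 libraries called 35 of the 47. Named after their values were seen, Aqp3, an aquaglyceroporin gene, was at 87.2 and 72.3 CPM in KO against 20.7 and 22.9 CPM, and Nr1d1, a repressor gene of the circadian clock, at 43.9 and 41.5 CPM against 11.2 and 11.1 CPM. Both had WT libraries that matched within each gene.

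The 5 exceptions were H2-Aa, H2-Ab1, H2-Eb1, S100a8 and S100a9, also named after their values were seen. H2-Aa, a chain of MHC class II on antigen-presenting cells, was at 73.2 and 117 CPM in KO, at 15.2 CPM in WT replicate 1 and at 193 CPM in WT replicate 2. H2-Ab1 and H2-Eb1 had the same order of libraries. S100a8, a neutrophil alarmin gene, was at 2.41 and 5.27 CPM in KO, had no count in WT replicate 1 and was at 9.47 CPM in WT replicate 2. For these genes the direction between genotypes depended on which WT library was used.

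**Figure D5:**
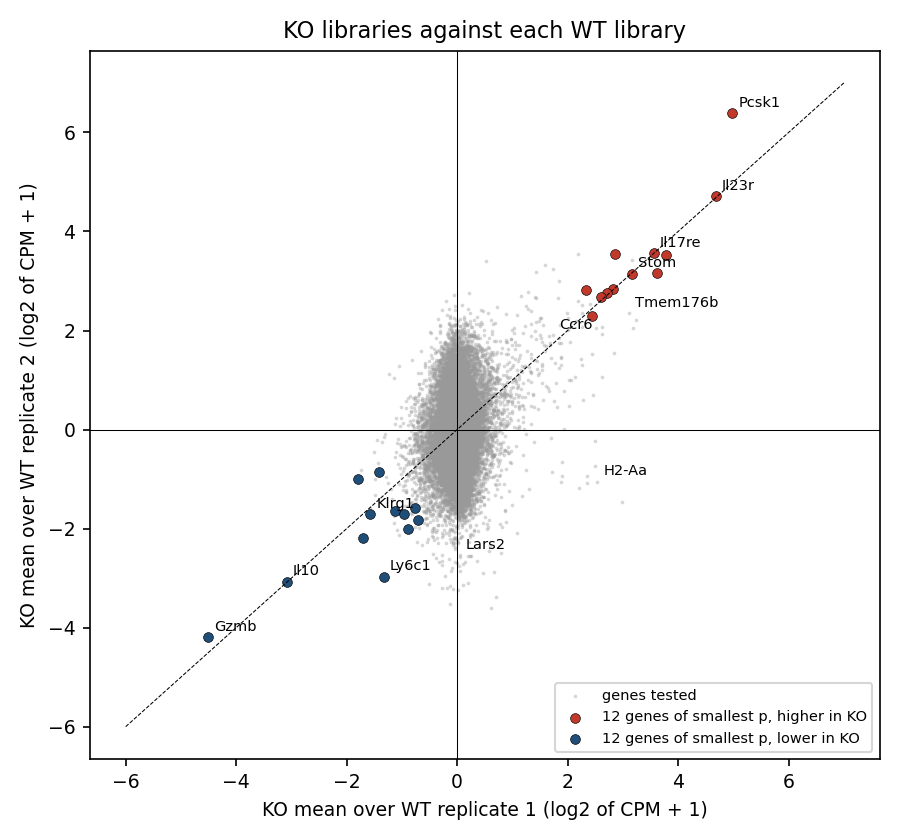
Log2 ratio of the mean KO level over WT replicate 1 (horizontal) and over WT replicate 2 (vertical), in CPM plus 1, for all genes tested, with the 12 genes of smallest p in each direction in color and a dashed line of equal ratios. Il23r, Il17re, Stom, Il10 and Gzmb lie near the line, the cloud of all genes is taller than wide, and H2-Aa is higher in KO than WT replicate 1 and lower than WT replicate 2.

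Transcripts of other cell types were present and differed between libraries of 1 genotype, and some markers exceeded Foxp3 in level, such as C1qb at 642 CPM in WT replicate 2 and Vcam1 at 531 CPM in KO replicate 2. The 6 macrophage markers summed to 404 and 1150 CPM in KO and to 590.3 and 1870 CPM in WT, highest in replicate 2 of each genotype, and none was separated. The 5 red cell markers summed to 284 and 85.9 CPM against 166 and 1451 CPM. Of the 4 NK cell markers, Ncr1 had no count in any library and Klrb1c was between 10.1 and 16.0 CPM. Tyrobp, which myeloid cells also express, was at 23.1 and 51.7 CPM in KO and at 30.1 and 303 CPM in WT, and the NK markers summed to 315 CPM in WT replicate 2. The neutrophil markers summed to at most 20.4 CPM and Ly6g was at most 0.345 CPM. The 5 B cell markers summed to between 43.5 and 94.7 CPM, with Pax5 at or below 0.460 CPM, and the 5 dendritic cell markers to between 15.0 and 28.2 CPM. The CD8 T cell genes Cd8a and Cd8b1 summed to 15.9 and 18.8 CPM in KO and to 25.9 and 33.0 CPM in WT, and both were separated and lower in KO. The 6 melanoma markers summed to between 3.91 and 7.25 CPM, nearly all of it Pmel, and Tyr and Slc45a2 had no count. Sdc1, a plasma cell surface gene, was at 6.57 and 3.94 CPM in KO against 0.478 and 0.806 CPM in WT, while Jchain, another plasma cell gene, was at 6.91 and 41.3 CPM against 2.23 and 29.5 CPM. The part of these cells in the genotype differences was not tested, and in bulk libraries fewer cells of a type and less RNA per cell cannot be told apart.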

How the data were processed

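Reads were made from ribosomal RNA-depleted, randomly primed libraries and sequenced as pairs. According to the submitters' processing notes, Trimmomatic 0.36, STAR 2.5.2b and featureCounts from Subread 1.5.2 were used with GRCm38. The authors deposited raw counts per gene with an exon Length column, which are the values used here. The deposited normalized counts were not used, and the strand setting is not given in the sources used here.

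Genes kept by edgeR's filterByExpr were tested with edgeR 4.0.16 (TMM, quasi-likelihood, Benjamini-Hochberg) in R 4.3.3 on the 4 splenic libraries. Alternatives used DESeq2 1.42.0, other filters, scalings, thinning, a length offset, a replicate block and left-out libraries. Log2 ratios between libraries used a pseudocount of 1 CPM. Code was tested on simulated data.

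Named were Prdm1, the 12 separated genes of smallest p in each direction with an absolute log2 fold change over 1 and at least 5 CPM, separated list members with an unadjusted p under 0.05, a fixed set of Treg and effector genes, and the 5 highest and 5 lowest genes of WT replicate 2. Clone, predicted, ribosomal, mitochondrial and antigen receptor symbols were left out of the first and last of these rankings. The members and lists were chosen with earlier results of these data known. A few members of these lists count in the totals but are not reported by name here.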

Additional observations from a re-analysis of the deposited data

Results flagged for a closer look

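For 15 of the 76 named genes both KO libraries lay on one side of both WT libraries in spleen and on the opposite side in tumor. Many of the named genes were chosen because they were separated in spleen. The share of all genes with such opposite orders was not computed, so the count of 15 is a description only. The difference of the log2 fold changes, spleen minus tumor, was tested as an interaction in edgeR's quasi-likelihood test on 8 libraries, where 0 of 17870 genes had an adjusted p under 0.05, 1399 had an unadjusted p under 0.05, and the smallest adjusted p was 0.164.

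Of the genes higher in splenic KO, the differences were 6.25 for Ermn, 7.37 for Pcsk1, 3.53 for Itgae, 2.57 for Il1r2, 2.18 for Il18r1, 3.61 for Ccr4 and 3.45 for Gpr15. Of the genes lower in splenic KO, they were -3.97 for Ccl4, -3.72 for Ly6c1, -4.53 for Marco, -2.76 for Ccl5, -6.07 for Gzmc, -4.72 for Dusp2, -2.89 for Dusp5 and -3.49 for Gngt2. Adjusted p-values of these 15 lay between 0.164 and 0.623 in that test. Gngt2 was named for its high level in WT replicate 2, so its place among the lower genes is not independent of that choice.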

How the results depend on the processing

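No gene passed on 4 libraries in edgeR's test. The number was 75 in DESeq2, 44 in DESeq2 on 8 libraries, 167 without a filter on low counts and 127 in DESeq2 without WT replicate 2, which was chosen after seeing the data. Leaving out 1 library gave between 21 (without KO replicate 2) and 3972 (without WT replicate 1), and the lone library is then assumed to vary like the others. Against 489 genes at an unadjusted p under 0.05, there were 804 in DESeq2, 1381 without a filter, 295 at a mean of at least 50 counts, and 254 to 7952 with 1 library left out. Separated genes with an absolute log2 fold change over 1 numbered 525 higher and 859 lower of the 16583 genes in edgeR's test. The settings differed in how many genes they held. In DESeq2 such genes numbered 1390 and 1905 of 26144, and in DESeq2 on 8 libraries 1356 and 1957 of 28921. Without a filter there were 1429 and 1808 of 26144, and 237 and 324 of 12486 at a mean of at least 50 counts. The length difference in the WT pair was 1.32 at that mean, 1.28 in genes above the median level, and 1.41 at a pseudocount of 0.1 CPM, also chosen after seeing the data. The cause was not tested, beyond the number of genes or samples that a setting leaves.

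The replicate block gave 101 genes past the threshold and 933 at an unadjusted p under 0.05. The labels share only a number, and same-numbered deviations correlated at 0.22 over 2 pairs.

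Of 1132 log2 fold changes of named genes under the alternatives, 25 changed sign, in 13 genes and in none of the 24 genes of smallest p. Over the alternatives they ran from -0.20 to 1.22 for Prdm1, -0.60 to 0.42 for Il2ra, -0.32 to 0.064 for Ctla4, -0.042 to 1.13 for Pdcd1, -1.36 to 0.76 for Eomes, -1.03 to 0.89 for Mbd2, -1.28 to 0.74 for Cela1, -2.24 to 0.0070 for Hnrnpa0, -2.46 to 0.051 for Lars2, -0.048 to 2.90 for Sacm1l, -0.36 to 2.46 for Usp33, -0.15 to 2.59 for Zfp869 and -0.032 to 2.63 for Rfwd3. Without WT replicate 2, edgeR gave 0.0059 for Hnrnpa0 and 0.049 for Lars2, and DESeq2 gave -0.039 for Pdcd1, -0.046 for Sacm1l and -0.030 for Rfwd3. Of 614 list medians, 103 moved by more than a standard error taken from the list's median log2 ratios within the WT and KO pairs.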
